A study of Homo sapiens with 6 samples.

Results

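The Ena/VASP proteins and the scaffolds that recruit them were followed here in RNA-seq of MDA-MB-231 cells, a human triple-negative breast cancer line. The set holds 8 of the 26255 gene symbols in the authors' table, EVL, ENAH, VASP, ZYX, RAPH1, APBB1IP, TES and LPP. The set was chosen by the log2 fold change of EVL between the groups, which was already known, and the other 7 genes were added by function. The values of the 8 genes in that difference are therefore given as a description, without a p-value. The groups were labelled as cells with a non-targeting control hairpin, shNT, and cells with a GPR81 hairpin, shGPR81, at 3 libraries each. GPR81 is the lactate receptor encoded by HCAR1. Both lines were made by lentiviral infection and kept under puromycin, so each group stands for a selected population, and which GPR81 hairpin the sequenced cells carried was not given in the sources used here. The labels do not say whether the 3 libraries of a group came from separate cultures, so the p-values below measure only the spread between these libraries, which may be technical.

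Ena/VASP proteins sit at the tips of filopodia and lamellipodia and at focal adhesions, where they bind the growing barbed ends of actin filaments, deliver profilin-bound actin to them and slow their capping. An N-terminal EVH1 domain docks them onto proline-rich stretches of partner proteins, and a C-terminal domain binds filaments and joins the molecules into tetramers. Mammals have a small family of paralogs, VASP, ENAH (also called Mena) and EVL. Zyxin (ZYX) and LPP carry EVH1 ligands at adhesions and stress fibers, RAPH1 (lamellipodin) and APBB1IP (RIAM) carry them at the leading edge under the control of small GTPases, and testin (TES) binds the EVH1 domain of ENAH through a LIM domain.

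Levels below are FPKM (fragments scaled by transcript length and by the number of mapped reads) as the authors deposited them, and differences are on the scale of log2(FPKM + 0.1), shGPR81 minus shNT. A gene was called when limma gave a Benjamini-Hochberg adjusted p under 0.05 and the fold change was above 1.5, over the 14349 genes that reached 0.1 FPKM in no fewer than 3 libraries. HCAR1 was at 0.968, 1.02 and 1.36 FPKM in shNT and at 0.978, 0.891 and 0.396 FPKM in the libraries labelled shGPR81, and its log2 fold change of -0.57 (SE 0.31) was not called (limma, adjusted p = 0.38). The groups overlap for HCAR1, and the lowest value was that of shGPR81 replicate 3. In the paper, the GPR81 hairpin lines had less GPR81 than shNT cells by RT-qPCR and by western blotting. The markers of the line were present, with VIM at 3551 ± 365 FPKM (SD, n = 3) in shNT, and ESR1, PGR and CDH1 were listed at 0 in all 6 libraries.

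EVL is the paralog with the lowest level of the family in these cells, and it was the gene of the set that differed by more than 1.5-fold. Its locus is chr14:100437786-100610573 (GRCh37, plus strand). EVL was at 6.30, 7.06 and 8.33 FPKM in shNT and at 0.456, 0.503 and 1.01 FPKM in the libraries labelled shGPR81. Every library labelled shGPR81 lay far below every shNT library, and within the group shGPR81 replicate 3 was about level with the sum of the other two. The mean fell from 7.23 ± 1.03 to 0.655 ± 0.305 FPKM (SD, n = 3 each), an 11.0-fold difference in means and a log2 fold change of -3.34 (SE 0.26). This was the 11th lowest log2 fold change of the tested genes, of which 1.59% were called lower, EVL among them. In bulk RNA, fewer cells with EVL transcripts and fewer transcripts per cell cannot be told apart.

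The FPKM of EVL are whole multiples of 1 step in all 6 libraries, so the reads behind them can be given. In the shNT libraries they came to 142, 163 and 188 reads, and in those labelled shGPR81 to 11, 12 and 24. With the relative depths of the libraries (1 to 1.07) the ratio of shGPR81 to shNT was 0.0905, with a 95% Clopper-Pearson interval of 0.0656 to 0.122 that covers counting error only. EVL was thus still detected in each library labelled shGPR81, at a low number of reads. No such step was recovered for the other 7 genes, and at high read counts the method cannot find one. Those of HCAR1 did, with 37, 40 and 52 reads in shNT and 40, 36 and 16 in the libraries labelled shGPR81. By the same method its ratio was 0.677, with an interval of 0.513 to 0.892 that again covers counting error only.

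ENAH and VASP differed far less than EVL. ENAH (chr1:225674467-225840844, minus strand) was at 12.7, 11.4 and 11.2 FPKM in shNT and at 10.4, 11.0 and 10.4 FPKM in the libraries labelled shGPR81. The groups do not overlap, but they are separated by little, with a log2 fold change of -0.15 (SE 0.07). Without shNT replicate 1, the library with the highest ENAH, the log2 fold change of ENAH was -0.099. VASP (chr19:46009837-46030247, plus strand) was at 55.4, 64.9 and 67.3 FPKM in shNT and at 77.6, 77.2 and 85.1 FPKM in the libraries labelled shGPR81. Its direction was opposite to that of EVL, again without overlap, with a log2 fold change of 0.36 (SE 0.08). Without shNT replicate 1, the library with the lowest VASP, the log2 fold change of VASP was 0.27.

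**Figure D1:**
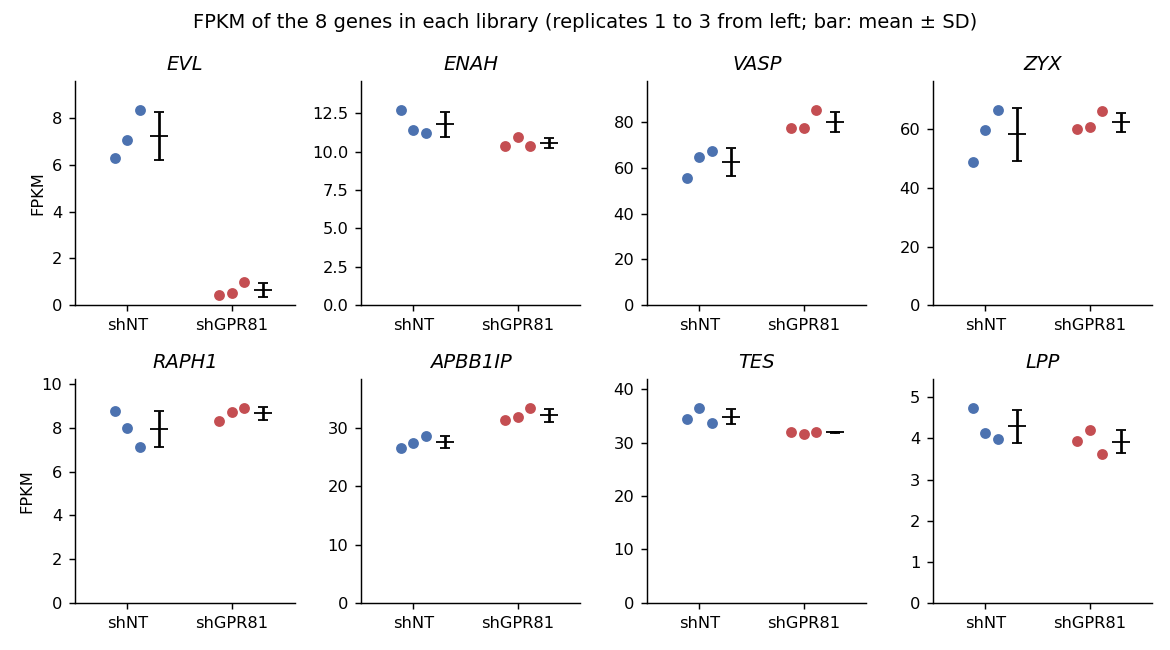
FPKM of each of the 8 genes (vertical axis, starting at 0, a separate scale per gene) in the 3 shNT libraries (blue) and the 3 libraries labelled shGPR81 (red), replicates 1 to 3 from left in each group, with the mean and SD beside them. EVL drops from 7.23 to 0.655 FPKM, while the other 7 genes stay within 27.9% of their shNT mean.

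Because FPKM is scaled by length, the levels of the paralogs can be set against each other within a library. EVL made up 8.46%, 8.46% and 9.59% of the summed FPKM of EVL, ENAH and VASP in the shNT libraries, and 0.515%, 0.568% and 1.04% in the libraries labelled shGPR81. The share of VASP went the other way, from 76.6% ± 1.85 to 87.7% ± 0.563 (SD, n = 3), and that of ENAH from 14.6% ± 2.21 to 11.6% ± 0.802. In shNT there was 1.35 to 2.02 times as much ENAH as EVL, and in the libraries labelled shGPR81 10.3 to 22.8 times as much. The log2 ratio of EVL to ENAH moved by -3.39 and that of EVL to VASP by -3.91 between the group means.

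The RNA of the family as a whole was not lower. The summed FPKM of the 3 paralogs was 74.4, 83.4 and 86.9 in shNT and 88.4, 88.7 and 96.5 in the libraries labelled shGPR81, with means of 81.6 ± 6.42 and 91.2 ± 4.58 FPKM (SD, n = 3). The difference in means was -6.57 FPKM for EVL, -1.21 FPKM for ENAH and 17.4 FPKM for VASP. All 3 shGPR81 sums were above the highest shNT sum.

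**Figure D2:**
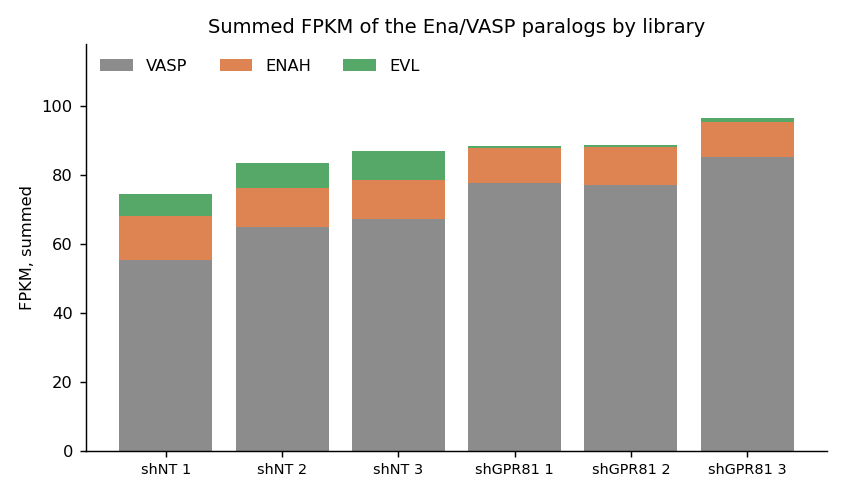
Summed FPKM of VASP (grey), ENAH (orange) and EVL (green) in each of the 6 libraries, stacked from 0. The EVL segment shrinks from between 8.46% and 9.59% of the sum in shNT to between 0.515% and 1.04% in the libraries labelled shGPR81, while the whole column is higher, 91.2 against 81.6 FPKM on average.

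The stretches upstream of the RefSeq transcription starts of the paralogs are shown because their RNA levels parted in these libraries. Each holds the 250 bases before a start, taken from RefSeq (GRCh38.p14) and matched at a single place on the same chromosome in GRCh37, which gives the coordinates. Capitals mark the GC box, GGGCGG on either strand, overlapping matches included. RefSeq has 2 such starts for EVL, the second inside the gene, and the table does not separate transcripts, so which start the EVL reads came from is not known. The windows lie at chr14:100437509-100437758 and chr14:100531509-100531758 on the plus strand for EVL, at chr1:225840826-225841075 on the minus strand for ENAH and at chr19:46010487-46010736 on the plus strand for VASP. The VASP window lies wholly inside the VASP locus given above, so it is not the stretch before that locus.
EVL, first start: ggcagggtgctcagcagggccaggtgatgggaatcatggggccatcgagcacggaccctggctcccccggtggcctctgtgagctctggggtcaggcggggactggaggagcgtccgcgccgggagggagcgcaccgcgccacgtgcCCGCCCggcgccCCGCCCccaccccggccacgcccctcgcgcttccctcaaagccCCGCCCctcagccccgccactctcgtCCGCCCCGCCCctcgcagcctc
EVL, second start: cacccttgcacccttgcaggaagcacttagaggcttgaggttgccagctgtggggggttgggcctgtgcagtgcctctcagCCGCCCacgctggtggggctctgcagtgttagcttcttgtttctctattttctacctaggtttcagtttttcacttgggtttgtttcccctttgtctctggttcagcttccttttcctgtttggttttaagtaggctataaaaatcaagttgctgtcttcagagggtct
ENAH: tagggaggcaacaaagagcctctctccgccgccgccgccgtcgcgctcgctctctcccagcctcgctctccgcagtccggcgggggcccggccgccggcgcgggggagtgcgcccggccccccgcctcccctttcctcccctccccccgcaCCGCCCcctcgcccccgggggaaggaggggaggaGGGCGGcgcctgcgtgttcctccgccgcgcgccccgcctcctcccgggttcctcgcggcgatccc
VASP: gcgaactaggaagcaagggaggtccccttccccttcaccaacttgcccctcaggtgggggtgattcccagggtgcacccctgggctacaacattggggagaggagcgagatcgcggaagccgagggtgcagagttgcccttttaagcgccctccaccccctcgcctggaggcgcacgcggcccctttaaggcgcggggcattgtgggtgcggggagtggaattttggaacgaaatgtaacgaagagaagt
The first EVL window has 5 GC boxes and 76.8% G and C, the second has 1 and 50%, that of ENAH has 2 and 80%, and that of VASP has 0 and 61.6%. Of 35093 such windows in RefSeq, 42.6% hold a GC box, and the median G and C content is 58%. The first EVL window also has the E-box CACGTG, which 6.34% of all windows hold. The cAMP response element TGACGTCA is in none of these 4 windows. A LPP window holds it, as do 1.65% of all windows. The CArG box, the site of SRF, is likewise in none of the 4. A TES window and another LPP window hold it, as do 1.16% of all windows. Matches of letters are no measure of binding.

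The adhesion partners of the family, the LIM proteins, differed little in their group means, while ZYX spread widely within shNT. ZYX (chr7:143078388-143088204, plus strand) was at 48.7, 59.7 and 66.5 FPKM in shNT and at 60.2, 60.8 and 66.2 FPKM in the libraries labelled shGPR81. The values of the groups interleave, and the log2 fold change was 0.11 (SE 0.11), or -0.015 without shNT replicate 1, whose ZYX was the lowest of all. TES (chr7:115850560-115898837, plus strand) was at 34.4, 36.5 and 33.8 FPKM in shNT and at 32.0, 31.7 and 32.0 FPKM in the libraries labelled shGPR81. Its groups do not overlap, and the log2 fold change was -0.13 (SE 0.05). LPP (chr3:187871072-188608460, plus strand) was at 4.74, 4.14 and 3.99 FPKM and at 3.95, 4.19 and 3.62 FPKM, with overlapping groups and a log2 fold change of -0.13 (SE 0.10).

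The leading-edge adaptors were both somewhat higher on average. APBB1IP (chr10:26727270-26856732, plus strand) was at 26.6, 27.5 and 28.7 FPKM in shNT and at 31.4, 31.9 and 33.5 FPKM in the libraries labelled shGPR81. The groups do not overlap, with a log2 fold change of 0.22 (SE 0.06), and both group SDs were close to 1.1 FPKM. RAPH1 (chr2:204259068-204400058, minus strand) was at 8.75, 7.99 and 7.11 FPKM and at 8.32, 8.73 and 8.90 FPKM, with overlapping groups and a log2 fold change of 0.13 (SE 0.09). RAPH1 shares part of its locus with ABI2 on the other strand, which was at 20.7 FPKM in shNT and 20.9 FPKM in the libraries labelled shGPR81, and how strand was used in counting was not given in the sources used here. APBB1IP is best known from blood cells. Of 9 blood cell markers, CD3E, ITGAM and SPI1 were listed at 0 in all libraries and PTPRC in all shNT libraries, and 0 of the 3 tested markers were called. The summed level of the 9, which was mostly CD68, was 80.6 to 105 FPKM in shNT and 113 to 133 FPKM in the libraries labelled shGPR81. The other tested blood markers, CD14 and CORO1A, went the other way on average. CD14 was at 3.38 ± 1.05 and 1.49 ± 0.312 FPKM (SD, n = 3), without overlap. CORO1A was at 2.10 ± 0.424 and 1.83 ± 0.458 FPKM, with overlapping groups. The part of blood cell gene expression in the APBB1IP values was not tested.

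Counted over the set, 1 of 8 genes was called, EVL, where 2.54% of all tested genes were called in either direction. All 8 passed the filter on low values. The groups did not overlap for 5 of the 8 genes (EVL, ENAH and TES lower, VASP and APBB1IP higher), where 25.6% of the tested genes had no overlap. The set was chosen with these differences known, so nothing is read from the counts. In log2 fold change the 8 genes had a median of -0.0089 and all tested genes 0.0081, and the values outside EVL ranged from -0.15 (ENAH) to 0.36 (VASP).

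**Figure D3:**
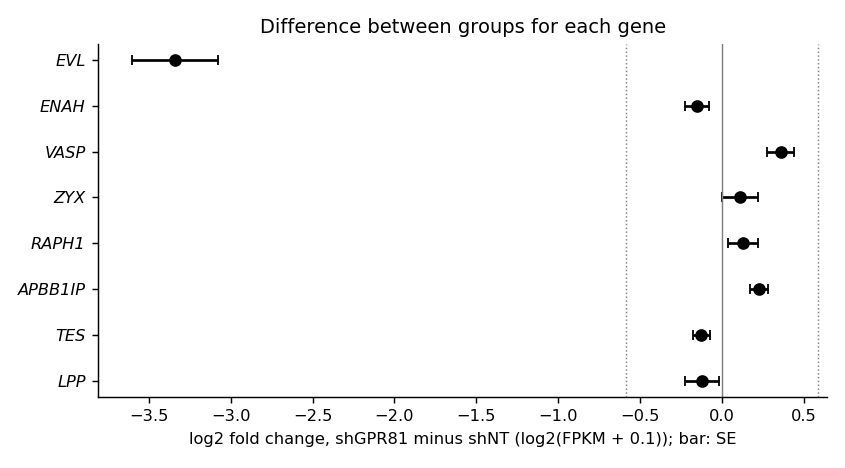
Log2 fold change, shGPR81 minus shNT, on the scale of log2(FPKM + 0.1) for each of the 8 genes, with its SE as the bar and a change of 1.5-fold in either direction as dotted lines. EVL lies at -3.34 and the other 7 genes lie between -0.15 and 0.36, inside the dotted lines.

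The order of the levels within shNT was VASP, ZYX, TES, APBB1IP, ENAH, RAPH1, EVL and LPP, from 62.5 ± 6.29 down to 4.29 ± 0.396 FPKM (SD, n = 3). The ranges of neighbours in this order over the 3 libraries did not overlap, except those of VASP and ZYX and those of RAPH1 and EVL. In the libraries labelled shGPR81 EVL took the last place, 5.99-fold below LPP, and APBB1IP and TES stood side by side at 32.2 ± 1.10 and 31.9 ± 0.186 FPKM. The replicates of EVL also spread most for their level there, with a coefficient of variation of 46.6% against 14.2% in shNT. For the other 7 genes it was 3.95% to 15.4% in shNT and 0.582% to 7.33% in the libraries labelled shGPR81.

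Genes next to EVL on the chromosome were taken as a measure that the choice of the set had not used. Of the 5 nearest tested genes on each side, 1 was called, beside the 2.54% called over all tested genes, and 9 were not, with log2 fold changes of -0.10 to 0.16. EML1, a microtubule-associated protein gene that ends 29.4 kb before the start of EVL, was called lower, from 0.988, 0.787 and 0.783 FPKM in shNT to 0.445, 0.435 and 0.338 FPKM. The difference was -0.91 on the log2 scale (SE 0.19, limma, adjusted p = 0.0375). The call of EML1 was lost whichever of the 6 libraries was omitted, with an adjusted p of 0.0759 to 0.119, and all other alternatives that tested it gave 0.0217 or more. YY1, the transcription factor gene on the other side, was at 43.9 ± 0.868 and 42.0 ± 0.781 FPKM (SD, n = 3). Over the 448 tested genes of chromosome 14 the median log2 fold change was -0.00053. DEGS2, which overlaps EVL on the other strand, and MIR342, in an intron of EVL, were listed at 0 in all 6 libraries, and mRNA libraries do not capture mature microRNAs.

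**Figure D4:**
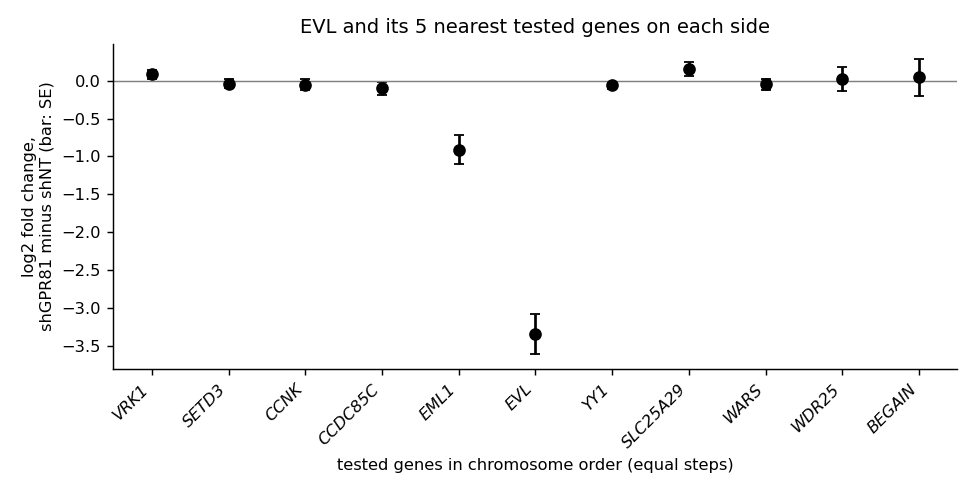
Log2 fold change, shGPR81 minus shNT (vertical axis, with SE), of EVL and its 5 nearest tested genes on each side in chromosome order, drawn in equal steps. EVL is at -3.34 and EML1, directly before it, at -0.91, while the other 9 genes lie between -0.10 and 0.16.

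The genes with the profile most like that of EVL were looked up among tested genes that averaged 1 FPKM or more, by the root mean square difference of their log2 values from EVL over the 6 libraries, each gene set to its own shNT mean. The nearest was TMEM98, a membrane protein gene, at 0.214 log2 units from EVL, with 7.62 ± 0.391 FPKM in shNT and 0.789 ± 0.267 FPKM in the libraries labelled shGPR81 (SD, n = 3). It was followed by TFF1 (0.50), EEF1A2 (0.55) and AMPH (0.56), so beyond TMEM98 the likeness is loose. With each gene set to its shNT mean, the distance depends mostly on the size of the drop, which chose EVL. Genes near EVL are therefore bound to be strongly lower ones, and they are named as a description only. TFF1 encodes a trefoil peptide of luminal epithelium, EEF1A2 a translation elongation factor and AMPH the endocytic protein amphiphysin. These 4 genes lie on different chromosomes, none of them chromosome 14, and EEF1A2 is on chromosome 20, which is described further on. EVL is itself more abundant in luminal breast cells. Of 14 luminal markers 11 were tested, and TFF1 and TFF3 were called lower and ERBB3 higher, beside the 2.54% called over all tested genes. The summed level of the 14, mostly that of the keratins KRT18, KRT8 and KRT19, was 456 to 584 FPKM in shNT and 465 to 538 FPKM in the libraries labelled shGPR81. KRT19 was at 78.1 ± 11.8 and 112 ± 9.60 FPKM (SD, n = 3), without overlap and under the fold threshold, while KRT18 and KRT8 had lower means in the libraries labelled shGPR81. The part of luminal gene expression in the EVL difference was not tested.

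The rest of the actin assembly machinery was described through 112 genes in 12 lists by textbook role, none of them among the 8. These lists were chosen with earlier results of these data known, so they are not independent of the data. Of the 105 that passed the filter, 3 were called lower and 3 higher, or 5.71% in either direction. Over all tested genes 2.54% were called in either direction, 1.59% lower and 0.955% higher. Their median log2 fold change was 0.017. The most abundant gene of each list was not called. ACTB, the main cytoplasmic actin, was at 2975 ± 373 and 2923 ± 165 FPKM (SD, n = 3). ARPC3 of the branching ARP2/3 complex was at 419 ± 14.2 and 452 ± 13.7 FPKM, without overlap. Of the 9 tested genes of the complex 0 were called, beside 2.54% of all tested genes, with log2 fold changes of -0.034 to 0.25. The groups did not overlap for 5 of the 9, beside 25.6% of all tested genes. In log2 fold change 7 of the 9 were above 0 and 2 below. CFL1, the main cofilin, was at 1594 ± 201 and 1679 ± 90.2 FPKM, and CAPG, a capping protein, at 315 ± 37.9 and 332 ± 25.2 FPKM. VCL, vinculin, which carries an EVH1 ligand at adhesions, was at 101 ± 0.369 and 107 ± 2.21 FPKM, which on the log2 scale is a difference of 0.083 with a 95% interval of -0.016 to 0.18.

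Of the 3 lower genes, 2 promote filament assembly at the membrane. WASF3, a WAVE protein that activates ARP2/3 downstream of RAC, was at 4.40, 4.22 and 3.91 FPKM in shNT and at 1.49, 1.48 and 1.39 FPKM in those labelled shGPR81. The difference was -1.46 on the log2 scale, with an SE of 0.10 and a limma adjusted p of 0.00068. The other WAVE and WASP genes, 13 of 14 tested, were not called. DAAM2, a formin of the WNT pathway, was at 0.824, 0.946 and 0.775 FPKM and at 0.136, 0.0573 and 0.0573 FPKM. The difference was -2.39 on the log2 scale, with an SE of 0.25 and a limma adjusted p of 0.0026. Because DAAM2 is close to the pseudocount in the libraries labelled shGPR81, its value ran from -3.30 with a pseudocount of 0.01 to -0.77 with a pseudocount of 1. The other 11 of 12 tested formins were not called. DIAPH1, the most abundant formin, was at 63.1 ± 2.68 and 62.5 ± 3.23 FPKM (SD, n = 3).

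DSTN, destrin, a filament-depolymerizing relative of cofilin, was the third, with 274, 276 and 274 FPKM in shNT and 182, 184 and 181 FPKM in the libraries labelled shGPR81. Its log2 fold change of -0.59 (SE 0.04, limma, adjusted p = 0.00066) lies just past the fold threshold. DSTN is on chromosome 20, where 354 of 389 tested genes were below 0 with a median log2 fold change of -0.39, and the part of that shift in the DSTN value was not tested.

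The 3 higher genes have separate roles. ROBO1, a guidance receptor whose family binds Ena/VASP proteins through the EVH1 domain, was at 1.24, 1.52 and 1.33 FPKM in shNT and at 3.42, 3.16 and 3.06 FPKM in those labelled shGPR81. The difference was 1.18 on the log2 scale, with an SE of 0.12 and a limma adjusted p of 0.0024. It was 1 of 6 tested genes in its list, and SEMA6A, FYB, ROBO2 and XIRP1 were below the filter. SCIN, scinderin, a filament-severing protein of the gelsolin family, was at 5.05, 5.68 and 4.44 FPKM and at 9.99, 12.04 and 9.96 FPKM. The difference was 1.06 on the log2 scale, with an SE of 0.12 and a limma adjusted p of 0.0032. FERMT3, kindlin-3, an integrin activator of blood cells, was low throughout, at 0.124, 0.121 and 0.062 FPKM and at 0.929, 0.588 and 0.733 FPKM. The difference was 2.07 on the log2 scale, with an SE of 0.26 and a limma adjusted p of 0.0052. Since FERMT3 is close to the pseudocount in shNT, that value ran from 0.66 with a pseudocount of 1 to 2.79 with a pseudocount of 0.01. TLN1, TLN2 and the other kindlins and RAP1 genes of its list were not called.

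**Figure D5:**
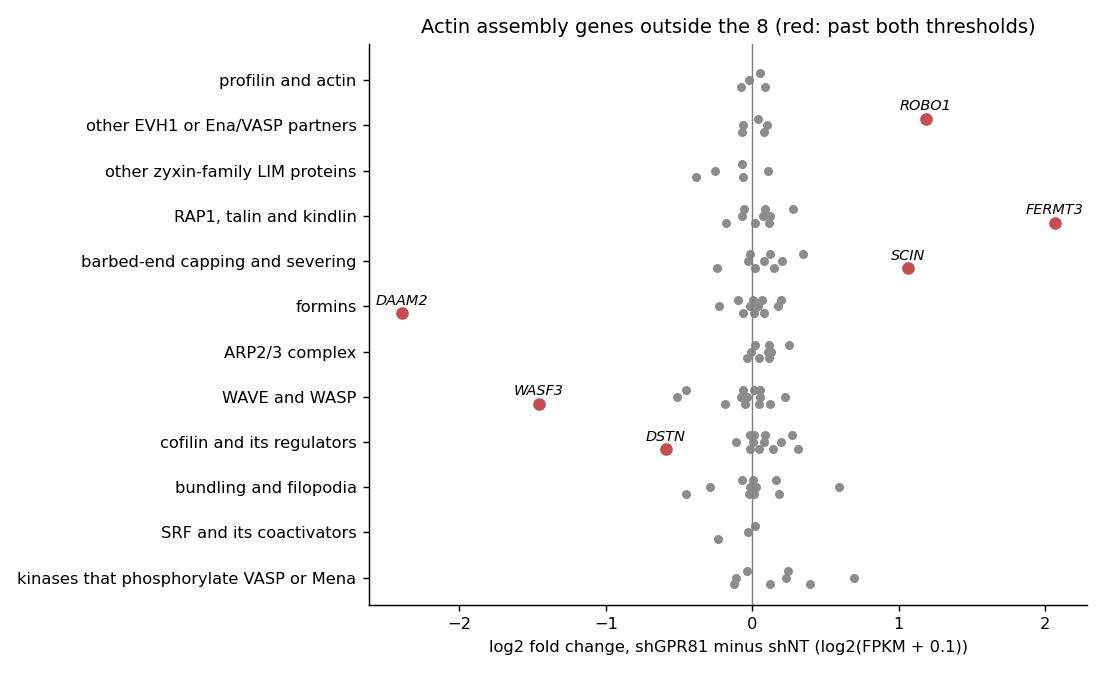
Log2 fold change, shGPR81 minus shNT, on the scale of log2(FPKM + 0.1) for the 105 tested actin assembly genes outside the 8, in 12 lists by role, with points spread vertically for legibility. The 6 called genes are red and named, WASF3, DAAM2 and DSTN to the left and ROBO1, SCIN and FERMT3 to the right, and the other 99 are grey.

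The remaining lists held no called gene, beside 2.54% of all tested genes, so in lists of this size a count of 0 says little. They were the zyxin-family LIM proteins outside the set (0 of 5), with TRIP6 the most abundant at 21.5 ± 2.34 and 20.5 ± 1.22 FPKM, the bundling and filopodia genes (0 of 11), with ACTN4 at 320 ± 52.3 and 356 ± 36.0 FPKM, and profilin and actin (0 of 4). The kinases that phosphorylate VASP or ENAH (0 of 8) had PRKACA, the catalytic subunit of the cAMP-dependent kinase, at 36.3 ± 4.50 and 39.4 ± 2.22 FPKM. For 4 of the 8 kinases the groups did not overlap, beside 25.6% of all tested genes. In log2 fold change 5 of the kinases were above 0 and 3 below. Highest in log2 fold change was PRKG1, at 0.802 ± 0.208 and 1.33 ± 0.0298 FPKM, without overlap. SRF, the transcription factor that drives many actin genes, and its coactivators (0 of 3) had SRF at 29.6 ± 3.98 and 28.9 ± 1.34 FPKM (SD, n = 3 for all). Most abundant in their lists were also RAP1B, at 70.2 ± 1.93 and 76.2 ± 3.39 FPKM, and BRK1, at 125 ± 4.81 and 120 ± 2.85 FPKM.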

How the data were processed

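RNA from 3 shNT and 3 shGPR81 libraries of MDA-MB-231 cells was prepared with a stranded mRNA kit and read as single-end reads of 75 bases. The authors deposited FPKM, 1 value per gene symbol and library. According to the methods the reads were mapped to hg19 (GRCh37), while the labels name a mouse build. The cells are human, so GRCh37 was used. The submitters' processing notes name TopHat2 2.0.13, Bowtie2 2.2.3, SAMtools 0.1.19 and Cuffnorm 2.2.1. The annotation was not given in the sources used here. Gene positions are from GENCODE release 44 lifted to GRCh37, with 842 of 13799 matched tested genes found by a synonym.

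The groups were fitted in limma 3.58.1 (R 4.3.3) on log2(FPKM + 0.1), with a mean-variance trend in eBayes and no block, over genes that reached 0.1 FPKM in no fewer than 3 libraries. The paper ran read counts in iDEP. The deposited values are FPKM, so no count model was used. The pseudocount understates changes of low genes. The script was tested on simulated data. Reads were recovered for genes whose FPKM, over all 6 libraries, divided into whole steps within a tolerance of 1e-04, after each library's scale was removed, which was also tested on simulated data. Total depth is unknown for the rest.

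The 8 genes, the actin lists, the marker lists and the tests were chosen with earlier results of these data known. Genes were named by a fixed rule, which was every gene of the set, HCAR1, every called gene and the most abundant gene of each actin list, the profiles nearest to EVL and the 5 nearest tested genes on each side of EVL. Other genes are named as marker genes, as members of a list below the filter or as overlapping genes. Alternatives were other pseudocounts and filters, median centring, quantile normalization, eBayes without trend, a replicate block and leaving out each library. A few items are not reported here.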

Additional observations from a re-analysis of the deposited data

How the results depend on the processing

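EVL was called lower under all 14 alternatives, but the set was chosen by this difference, so these calls are a description and no test. Its log2 fold change was -3.65 to -3.16 over the fits that left out 1 library. With a pseudocount of 1 it was -2.32, by the construction of that scale. None of the other 7 genes was called under any alternative. ZYX changed sign without shNT replicate 1 (-0.015), and the other 6 genes kept theirs. The EVL share of the family stayed within 8.46% to 9.03% in shNT and 0.542% to 0.805% in shGPR81 with 1 library of the group left out. Of the 6 called actin assembly genes, WASF3, DSTN, ROBO1 and SCIN were called under all 14 alternatives, and DAAM2 and FERMT3 under the 13 that tested them, since a filter of 1 FPKM removes both. PRKG1, named after its values were seen, was also called without shNT replicate 1. The number of called neighbours of EVL went from 1, EML1, to 0 with a pseudocount of 1, a filter of 1 FPKM, no filter or the replicate block, and to 0 in each fit that left out 1 library. The filter of 1 FPKM removes EML1, and with a pseudocount of 1 its log2 fold change of -0.40 is under the fold threshold. The cause of the other losses was not tested. HCAR1 was not called in any of its 13 alternatives (adjusted p from limma 0.299 to 0.677, log2 fold change -0.78 to -0.22), and the filter of 1 FPKM removed it. For HCAR1 alone, p was 0.2 by exact permutation (two-sided), and 0.1 is the smallest that 3 against 3 libraries can give.

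The deviations of shNT and shGPR81 libraries of the same replicate number correlated at 0.12, 0.022 and 0.0058 across genes. These low values show no clear pairing by number, but with 3 libraries per group they cannot exclude it. With the replicate block the log2 fold change of EVL was -3.34 (SE 0.16), and 3 actin assembly genes were called lower and 3 higher, as without it. Over all genes 197 were then called lower and 115 higher, against 228 and 137. The counts were 142 and 75 with a pseudocount of 1 and 261 and 162 without the trend. Omitting a library gave 238 and 156 (shNT replicate 1), 110 and 83 (shNT replicate 2), 146 and 129 (shNT replicate 3), 141 and 74 (shGPR81 replicate 1), 143 and 68 (shGPR81 replicate 2) or 175 and 84 (shGPR81 replicate 3). The 47 reads behind EVL in shGPR81 limit how closely its level there is known, and genes under 0.1 FPKM were not compared.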
